A study of Homo sapiens with 6 samples.

Results

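The 34 genes described here are targets that androgens are known to induce in prostate cells, other than the kallikrein proteases. They were chosen by symbol from general knowledge of androgen-responsive genes, with earlier results of these data known. The 3 experiments together listed 26853 gene names, and PPAP2A is the older symbol of PLPP1. Expression was measured by RNA-seq in C4-2B, a human cell line of prostate cancer that descends from LNCaP cells and forms bone metastases. All 6 libraries came from cells in medium that held mostly charcoal-stripped serum, which is low in steroid hormones, and RNA was taken 48 h after vehicle or compound was added. The first experiment compared vehicle with 5 µM SR2211, an inverse agonist of a nuclear receptor, and the second compared vehicle with 5 µM XY011, known here only by its code. The third compared vehicle with 20 µM enzalutamide (ENZ), a drug that blocks androgen signalling. Each experiment held 1 library per group, so no difference within an experiment had a replicate check.

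Androgens enter prostate epithelial cells and activate a ligand-dependent nuclear receptor, which binds DNA mainly at enhancers and turns on genes of secretion, lipid metabolism and transport. Many of its targets hold their response elements in introns or far upstream rather than at the start site. Some of them, such as FKBP5, SGK1 and TSC22D3, are also classic targets of glucocorticoids, whose receptor recognises nearly the same DNA letters. In stripped serum the residual expression of such genes is used as a readout of how active the androgen pathway remains.

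Levels are RPKM in the SR2211 experiment and FPKM in the others, both read numbers scaled for gene length and library size. A change is log2((treated + 1)/(vehicle + 1)) within an experiment, which understates the change of low genes. A gene counted as tested where vehicle or treated library reached 1, and was called lower or higher at a change of 1 or more on that scale, a size rule that carries no p-value. Of the 34 genes, 31 were tested in all 3 experiments and PTGER4 in the ENZ experiment alone. PTGER4 was below 1 in the other experiments. ADAM7, which encodes an epididymal membrane protein, and HPGD, the prostaglandin-degrading enzyme, were under 1 in each library that listed them and were not listed for ENZ. ADAM7 was at 0.323 and 0.0361 RPKM and HPGD at 0.200 RPKM in the SR2211 vehicle, with no reads of HPGD in the treated library. The mapped depth, worked out from the values, was nearly equal in the SR2211 experiment, with a ratio of treated to vehicle of 0.996. The depth was unknown for the other libraries.

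The cells had the profile that the labels give. All 11 prostate luminal markers were at 1 or more in an experiment's libraries in each of the 3, with summed levels of 1995 in vehicle and 1514 with SR2211, 2016 and 1167 with XY011, and 2408 and 2275 with ENZ. That sum moved in the direction of most androgen-induced genes. By the size rule 3 of the 11 were lower and 1 higher with SR2211, and 6 lower and 1 higher with XY011. With ENZ 2 were lower and 0 higher. Their median changes were -0.28, -1.44 and -0.08 with SR2211, XY011 and ENZ. Over all genes tested 5.75%, 13.2% and 4.67% were lower. The part of the luminal markers in the members' changes was not tested. Of 5 basal markers 1, 1 and 3 reached 1 in the SR2211, XY011 and ENZ experiments, with summed levels of 0.306 to 7.69, and TP63 was listed in none. Of 5 leukocyte markers 1 reached 1 in each experiment, with sums of 4.72 to 13.3, and CD3E was listed in none. No endothelial marker reached 1. Summed levels of 7 stromal markers were higher in each treated library, at 9.19 in vehicle and 16.7 with SR2211, 7.89 and 13.3 with XY011, and 46.7 and 69.1 with ENZ. Those of 6 neuroendocrine markers were 2.69 and 4.45, 1.67 and 3.23, and 10.3 and 11.6 in the same order, with CHGB and INSM1 listed in none. The part of these lists in the members' changes was not tested. The values are relative to each library, so fewer transcripts per cell and fewer expressing cells cannot be told apart.

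Most of the androgen-induced genes were lower with each compound. With SR2211, 19 of 31 tested members were lower and 1 was higher, where 5.75% of the 12154 genes tested were lower and 5.1% higher. With XY011, 19 of 31 were lower and 3 higher, where 13.2% of 12619 genes were lower and 7.58% higher. The share of increases among all XY011 calls was 36.5%, and 51.1% after centring on the median gene. With ENZ, 22 of 32 were lower and 0 higher, where 4.67% of 19252 genes were lower and 3.67% higher. Median changes of the members were -1.17, -1.18 and -1.48 with SR2211, XY011 and ENZ, beside -0.07, -0.14 and -0.02 over all genes tested. The same 15 members were lower in all 3 experiments, which is 48.4% of the 31 tested in each, whereas 100 of 11205 genes, 0.892%, did so. For SR2211 and XY011 alone 18 members were lower in both, beside 4.61% of genes. No member was higher in all 3 (0 of 31, beside 0.509% of genes). These 15 were FKBP5, ACSL3, PMEPA1, SLC45A3, HERC3, ELL2, MAF, C1orf116, GNMT, TRPM8, CAMKK2, SORD, RAB3B, BMPR1B and INPP4B. The list was proposed with results of these data known, so its counts describe the libraries and are not independent evidence of a direction.

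**Figure D1:**
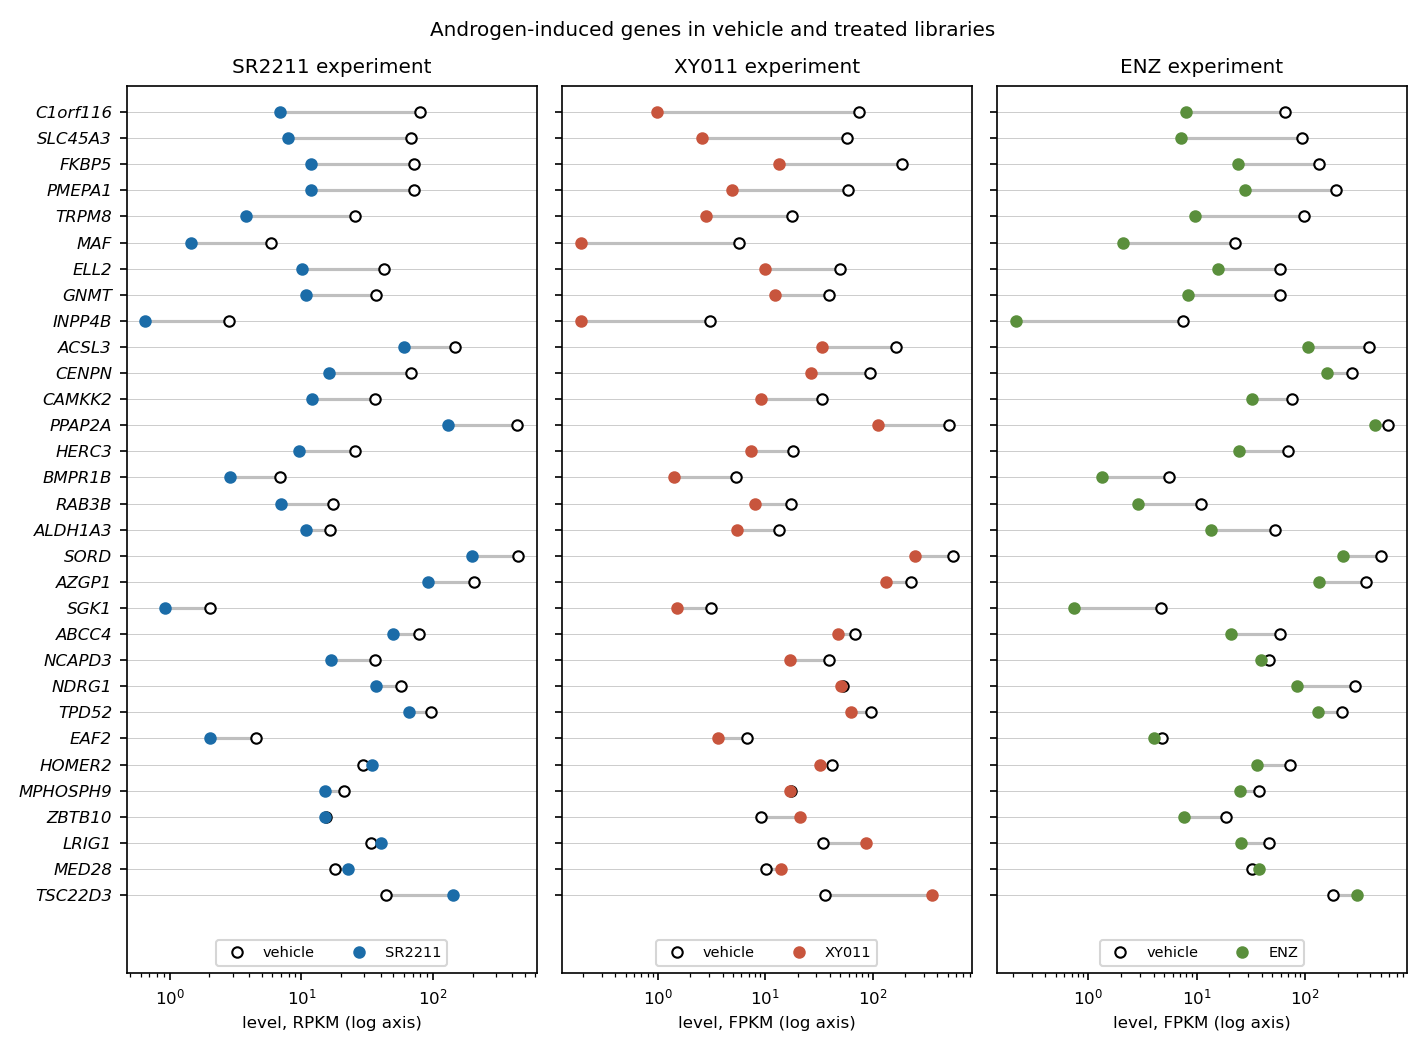
Level of the 31 members tested in all experiments (rows, ordered by mean change), on a log axis in RPKM or FPKM; open points are vehicle libraries, filled points treated libraries, and grey lines join the 1 pair of an experiment. C1orf116 at the top went from 79.9 to 6.90, from 74.7 to 0.980 and from 65.1 to 7.89, while TSC22D3 at the bottom was higher in each treated library.

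C1orf116, also known as the specifically androgen-regulated gene, had the lowest change of all 12154 genes tested with SR2211 and of all 12619 with XY011. It went from 79.9 to 6.90 RPKM with SR2211, from 74.7 to 0.980 FPKM with XY011 and from 65.1 to 7.89 FPKM with ENZ. The 3 vehicles lay close together and all treated libraries lay far below them. Its level was thus 11.6-fold lower with SR2211, 76.2-fold lower with XY011 and 8.25-fold lower with ENZ, the XY011 value resting on a level just under 1. The prostein gene SLC45A3, a solute carrier known for its prostate-restricted expression, went from 67.6 to 7.86 RPKM, from 57.3 to 2.60 FPKM and from 94.4 to 7.22 FPKM. It was 8.60-fold, 22.1-fold and 13.1-fold lower, and had the lowest change of any member with ENZ. Reads of the SLC45A3-ELK4 readthrough transcript could enter that value.

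The stretches of DNA before the start sites of these genes are shown because C1orf116 and SLC45A3 were the members with the lowest mean change and each has 1 start site in the table used. The sequences are from RefSeq on GRCh38.p14, 250 bases upstream, and 26 of the 34 members had an entry. The window of C1orf116 lies at chr1:207032757-207033006, minus strand, and that of SLC45A3 at chr1:205680510-205680759, minus strand. All letters are in lower case because neither window holds any of the motifs searched.
C1orf116: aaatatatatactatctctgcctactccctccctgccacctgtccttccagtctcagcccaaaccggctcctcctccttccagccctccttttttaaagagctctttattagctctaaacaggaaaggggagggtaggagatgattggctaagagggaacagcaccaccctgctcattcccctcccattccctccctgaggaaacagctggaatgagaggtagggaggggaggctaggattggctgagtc
SLC45A3: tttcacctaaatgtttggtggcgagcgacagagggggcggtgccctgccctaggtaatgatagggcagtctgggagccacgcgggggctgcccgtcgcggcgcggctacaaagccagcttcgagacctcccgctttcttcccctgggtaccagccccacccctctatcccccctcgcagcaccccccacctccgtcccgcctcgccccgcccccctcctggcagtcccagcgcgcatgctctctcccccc
The first is 52.4% G and C with 1 CG pair, and the second is 69.2% G and C with 19 CG pairs. The androgen response half-site AGAACA, searched on both strands (also as TGTTCT) in windows from 250 bases before to 50 after each start, was in 5 of 53 windows of members, 9.43%, and in 14.8% of all 35116 windows. The full palindromic element, AGAACA followed after 3 bases of any kind by TGTTCT, was in 0 member windows and in 1 window of all. The forkhead motif TGTTTAC (other strand GTAAACA) was in 1 member window, that of TSC22D3, or 1.89%, and in 3.42% of all.

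The half-site matches of members are shown with the motif in capitals, as stretches of 30 bases read along the gene's own strand. In TRPM8, at chr2:233979971-233980000, plus strand, it begins 166 bases before one of its start sites. In PMEPA1 it lies at chr20:57710789-57710818, minus strand, and at chr20:57711433-57711462, minus strand. In FKBP5 it lies at chr6:35728566-35728595, minus strand, and in SGK1 at chr6:134177839-134177868, minus strand, both at a start site.
TRPM8: gacatgaagagcAGAACAgccagtgtgcta
PMEPA1, upstream of one start: acctgaagaatgTGTTCTtgtagcactcct
PMEPA1, just after another start: cttgacttctccAGAACAagcctcctggtc
FKBP5: caccactaccccAGAACAaactcctacctc
SGK1: ggggttcataacAGAACAgggatagccgtc
A match of 6 letters is a description and not a binding site.

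Signalling regulators were lower in 5 of 10 with SR2211, in 5 of 10 with XY011 and in 7 of 10 with ENZ. Of them 1 was higher with SR2211, 2 with XY011 and 0 with ENZ. Beside these and the counts by role below, 5.75%, 13.2% and 4.67% of all genes tested were lower in the same order. FKBP5, a co-chaperone of steroid receptor complexes, went from 72.0 to 11.9 RPKM with SR2211, from 187 to 13.5 FPKM with XY011 and from 134 to 23.9 FPKM with ENZ. Treated libraries held 16.5%, 7.21% and 17.9% of the vehicle level. PMEPA1, a membrane adaptor that restrains TGF-β signalling, went from 71.7 to 11.9 RPKM, from 59.4 to 4.93 FPKM and from 195 to 27.6 FPKM. For both genes every treated library lay below all 3 vehicles, although the vehicles of FKBP5 differed up to 2.60-fold and those of PMEPA1 3.28-fold between tables that were normalised separately. INPP4B, a lipid phosphatase that opposes PI3K signalling, went from 2.80 to 0.651 RPKM, from 3.05 to 0.190 FPKM and from 7.42 to 0.213 FPKM, so little was left with XY011 and ENZ. CAMKK2, a kinase upstream of AMPK, went from 36.4 to 12.1 RPKM, from 33.4 to 9.03 FPKM and from 76.3 to 32.3 FPKM. BMPR1B, a receptor for bone morphogenetic proteins, was 2.41-fold lower with SR2211, 3.82-fold with XY011 and 4.12-fold with ENZ, from vehicle levels of 5.35 to 6.84.

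Other regulators differed between the experiments. NDRG1, a gene induced by differentiation, hypoxia and androgen, went from 56.9 to 37.1 RPKM with SR2211, from 52.7 to 50.9 FPKM with XY011 and from 290 to 84.5 FPKM with ENZ. It was called lower with ENZ alone, and the ENZ vehicle held far more of it than the others. SGK1, a kinase that controls ion transport, went from 2.01 to 0.916 RPKM, from 3.09 to 1.52 FPKM and from 4.69 to 0.731 FPKM, and likewise was called with ENZ alone. Its level was 2.20-fold and 2.03-fold lower with SR2211 and XY011, but changes of -0.65 and -0.70 on the log2(value + 1) scale missed the rule. The scaffold gene HOMER2 had changes of 0.23, -0.37 and -0.99 and passed the rule in none. LRIG1, which limits growth factor receptors, went from 33.8 to 40.2 RPKM, from 34.4 to 87.0 FPKM and from 46.7 to 25.5 FPKM. It was higher with XY011 (change 1.31) while ENZ gave -0.85. Differences between compounds could not be tested with 1 pair each, and the dose of ENZ was not that of the others.

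TSC22D3, the glucocorticoid-induced leucine zipper gene GILZ, was above its vehicle in every experiment, as was MED28 by smaller amounts, and was the 1 member called higher in more than 1 experiment. It stood at 44.3 RPKM in vehicle and 141 with SR2211, at 35.8 and 358 FPKM in the XY011 experiment and at 181 and 300 FPKM in the ENZ experiment. The SR2211 library nonetheless lay below the ENZ vehicle. Its changes were 1.65, 3.29 and 0.73, called with SR2211 and XY011. ZBTB10 and LRIG1 were the other members called higher, both with XY011. Among 15 other glucocorticoid-induced genes, 5 of 12 tested were higher and 2 lower with SR2211, 8 of 12 were higher and 0 lower with XY011, and 1 of 14 was higher and 2 lower with ENZ. Over all genes tested 5.1%, 7.58% and 3.67% were higher and 5.75%, 13.2% and 4.67% lower with SR2211, XY011 and ENZ. Medians of the glucocorticoid-induced list were 0.56, 1.45 and -0.14. DDIT4, which is also a stress gene, led the increases with changes of 3.46, 3.90 and 1.24. The metallothionein gene MT2A followed with 3.32, 2.40 and 0.62, and the transcription factor gene ZBTB16 had the lowest mean over the experiments, with changes of -1.65, -0.02 and -2.32. Of the members that glucocorticoids also induce, FKBP5 and SGK1 thus lay below 0 and TSC22D3 above 0 in each experiment.

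**Figure D2:**
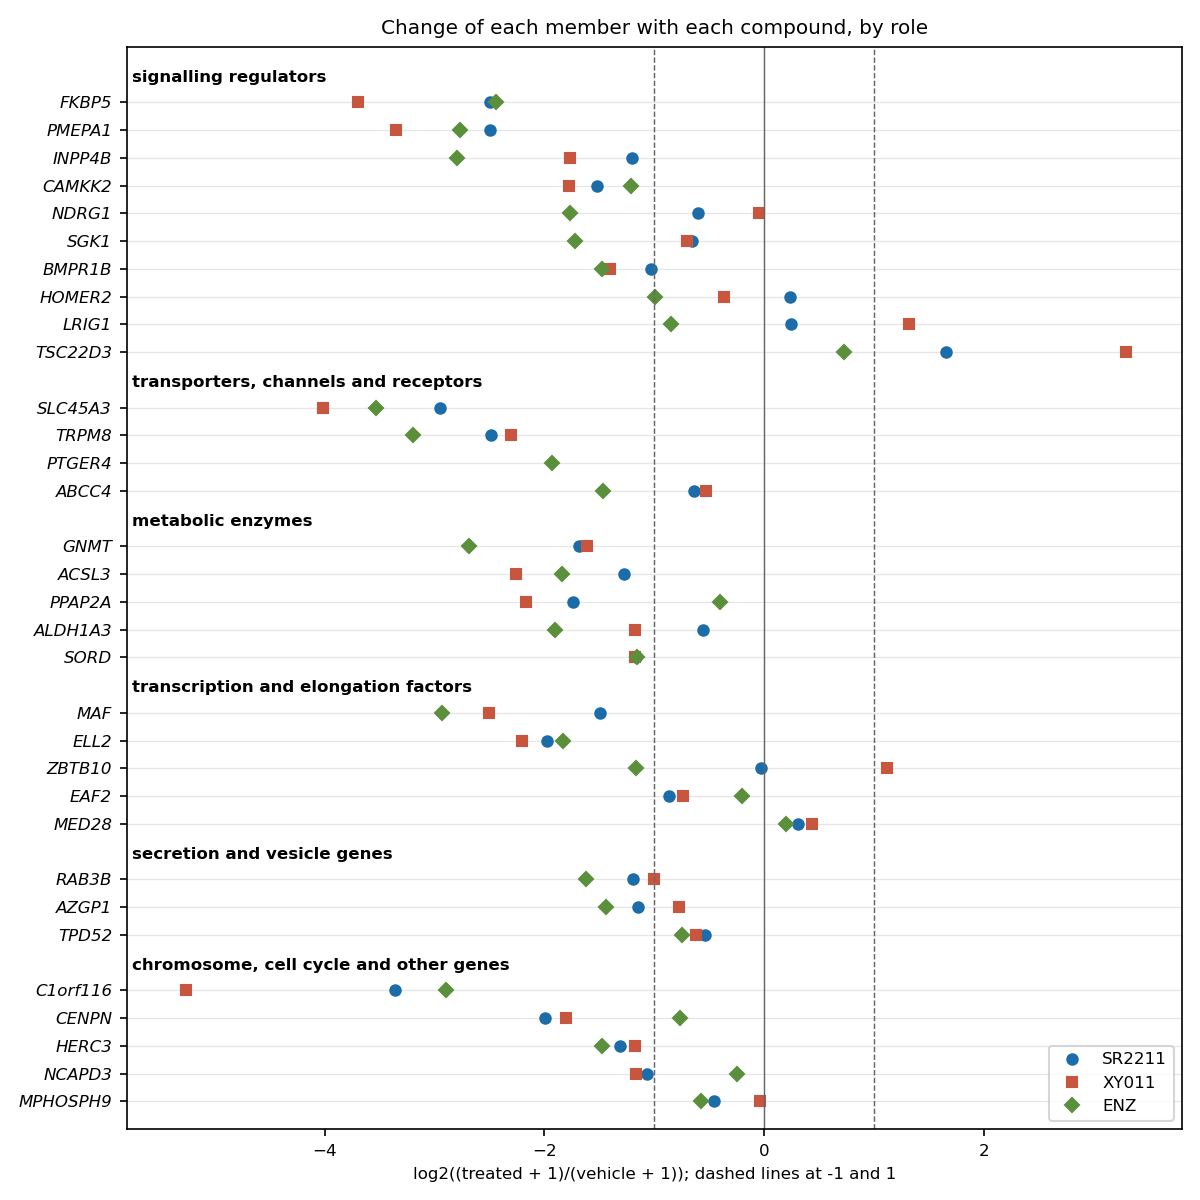
Change of each tested member (rows, grouped by role) with SR2211 (circles), XY011 (squares) and ENZ (diamonds), as log2((treated + 1)/(vehicle + 1)) with dashed lines at -1 and 1. Transporters and enzymes lie to the left in all experiments, while TSC22D3 lies at 0.73 to 3.29, and ZBTB10 and LRIG1 lie on different sides of 0.

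Transporters, channels and receptors were lower in 2 of 3 tested with SR2211, 2 of 3 with XY011 and 4 of 4 with ENZ. TRPM8, a cold-sensing calcium channel, went from 25.7 to 3.77 RPKM, from 17.7 to 2.80 FPKM and from 97.1 to 9.69 FPKM. It was lower by 6.82-fold, 6.34-fold and 10.0-fold, similar factors from vehicle levels that differed 5.47-fold. ABCC4, an exporter of cyclic nucleotides and prostaglandins, went from 77.8 to 49.5 RPKM, from 68.4 to 47.2 FPKM and from 58.7 to 20.5 FPKM and was called with ENZ alone. PTGER4, a prostaglandin E2 receptor, was at 0.924 and 0.428 RPKM and at 0.790 and 0.530 FPKM in the first experiments, too low to be tested. In the ENZ experiment it went from 9.17 to 1.67 FPKM.

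Metabolic enzymes were lower in 4 of 5 tested with SR2211, 5 of 5 with XY011 and 4 of 5 with ENZ. ACSL3, which activates long-chain fatty acids, went from 147 to 60.1 RPKM, from 166 to 33.9 FPKM and from 388 to 108 FPKM. GNMT, the glycine methyltransferase that uses S-adenosylmethionine, went from 37.0 to 10.8 RPKM, from 39.4 to 12.2 FPKM and from 58.8 to 8.32 FPKM. SORD, sorbitol dehydrogenase, held 44.4%, 44.1% and 44.6% of its vehicle level. This was the closest match among the 3 experiments of any member lowered in all. It has a pseudogene copy, so part of its value is uncertain. ALDH1A3, a retinaldehyde dehydrogenase, had changes of -0.56, -1.18 and -1.90 and was called with XY011 and ENZ. PPAP2A, a lipid phosphate phosphatase, went from 435 to 129 RPKM, from 512 to 113 FPKM and from 588 to 444 FPKM. It was thus lower with SR2211 and XY011 and missed the rule with ENZ, where 75.5% of the vehicle level was left.

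Transcription and elongation factors were lower in 2 of 5 with SR2211, in 2 of 5 with XY011 and in 3 of 5 with ENZ. ELL2, a subunit of the super elongation complex, went from 42.8 to 10.1 RPKM, from 49.3 to 9.91 FPKM and from 58.6 to 15.8 FPKM. MAF, a bZIP transcription factor, went from 5.91 to 1.46 RPKM, from 5.74 to 0.190 FPKM and from 22.6 to 2.09 FPKM. The treated ranges of both genes lay below their vehicle ranges. EAF2, a partner of ELL proteins, was not called in any experiment, with changes of -0.87, -0.74 and -0.21. MED28, a Mediator subunit, was slightly above its vehicle in all 3, with changes of 0.31, 0.43 and 0.20, none called. ZBTB10, a zinc finger repressor, stood at 15.4 and 15.0 RPKM, at 9.13 and 21.0 FPKM, and at 18.5 and 7.69 FPKM. It was level with SR2211, higher with XY011 and lower with ENZ.

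Secretion and vesicle genes were lower in 2 of 3 with SR2211, 1 of 3 with XY011 and 2 of 3 with ENZ. RAB3B, a GTPase of secretory vesicles, stood at 17.3 RPKM, 17.2 FPKM and 10.8 FPKM in vehicle and kept 40.4%, 47.1% and 26.4% of that, its XY011 change of -1.001 lying at the edge of the rule. AZGP1, zinc-alpha-2-glycoprotein of seminal fluid, went from 205 to 92.0 RPKM, from 227 to 132 FPKM and from 366 to 134 FPKM. TPD52, a vesicle trafficking protein, had changes of -0.54, -0.62 and -0.75 and was not called in any. All of these genes were below their own vehicle in every experiment.

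The remaining genes were lower in 4 of 5 with SR2211, 4 of 5 with XY011 and 2 of 5 with ENZ, with C1orf116 in each. HERC3, a ubiquitin ligase, went from 25.4 to 9.66 RPKM, from 18.0 to 7.38 FPKM and from 69.9 to 24.4 FPKM. CENPN, a centromere protein needed to assemble kinetochores, went from 67.7 to 16.3 RPKM, from 94.95 to 26.5 FPKM and from 273 to 160 FPKM. NCAPD3, a condensin II subunit, went from 36.1 to 16.7 RPKM, from 39.2 to 16.9 FPKM and from 46.5 to 39.0 FPKM. With ENZ both chromosome genes, at changes of -0.77 and -0.25, missed the rule that they passed with SR2211 and XY011. MPHOSPH9, a centrosomal protein, had changes of -0.46, -0.04 and -0.57.

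Changes of the members were compared between the experiments. Across 31 members, which are not independent replicates, the changes with SR2211 and XY011 had a Pearson correlation of 0.95, and those with ENZ had 0.73 with each. The rank correlations (Spearman) were 0.95 for SR2211 with XY011, 0.64 for SR2211 with ENZ and 0.70 for XY011 with ENZ. Over the 11174 other genes tested in all experiments the Pearson values were 0.80, 0.42 and 0.38, and the Spearman values 0.77, 0.41 and 0.36. The experiments shared no library, while each gene kept its length, though not always its vehicle level, in them. A wider range of changes alone raises such a value. The change was lower with XY011 than with SR2211 in 17 of the 31 members. ENZ gave the lowest change of the compounds in 19, at a dose that was not matched. Neither count has a share over all genes beside it, so both describe the members alone. Medians over all genes tested were -0.07, -0.14 and -0.02 with SR2211, XY011 and ENZ. In rank, 9 of 31 members were among the lowest 1% of genes with SR2211, 7 of 31 with XY011 and 10 of 32 with ENZ.

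**Figure D3:**
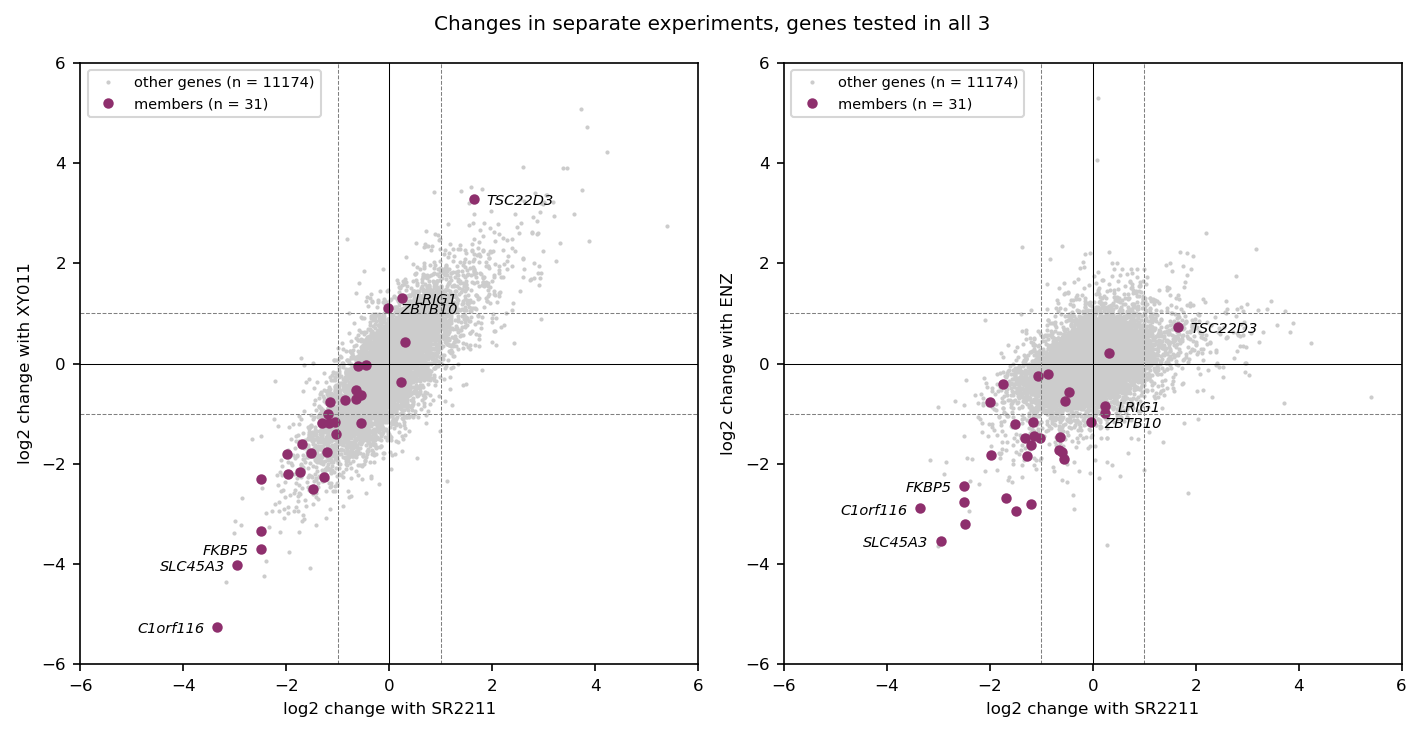
Log2 change with SR2211 (horizontal) against XY011 (left) or ENZ (right), 1 point per gene, for 31 members and 11174 other genes; dashed lines mark -1 and 1. Most members lie in the lower left corner of both panels, with C1orf116 at -3.36 and -5.26 on the left, and TSC22D3 lies in the upper right.

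Counting error was small for most members in the SR2211 experiment, where whole read numbers could be worked out for 33 members. The smallest whole numbers that fit were 3607 reads in vehicle and 310 with SR2211 for C1orf116, a ratio of 0.0863 with an exact 95% interval of 0.0766 to 0.0970. For TSC22D3 they were 839 and 2660 reads, a ratio of 3.18 with an interval of 2.95 to 3.45. If the true numbers are larger by a whole factor, the ratio stays and the interval is narrower. The interval lay below 1 for 27 members, above 1 for 4 and across it for ZBTB10 (0.904 to 1.06) and PTGER4 (0.145 to 1.31). The 4 above were TSC22D3, MED28, LRIG1 and HOMER2, of which MED28 had an interval of 1.03 to 1.51. EAF2 (38 and 17 reads) and SGK1 (53 and 24 reads) had wide intervals, 0.238 to 0.816 and 0.269 to 0.7499. These intervals hold no variation between cultures. They are given for members alone, so the counts have no share over all genes beside them. Of the 12154 genes tested with SR2211, 54.4% had a change below 0.

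**Figure D4:**
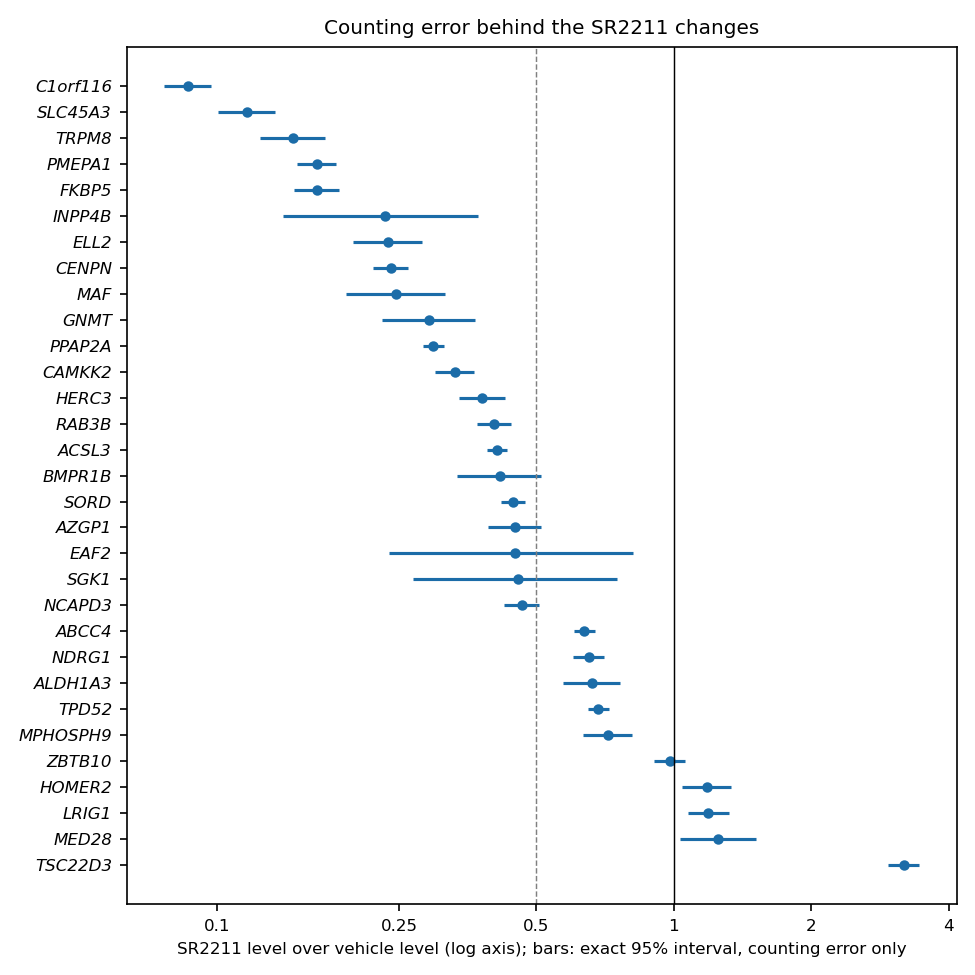
Level with SR2211 over level in vehicle (points, log axis) for 31 members, with bars for the exact 95% interval of counting error; the line marks 1 and the dashed line 0.5. The bar of C1orf116 spans 0.0766 to 0.0970 and that of ZBTB10 spans 1.

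The mean change over the 3 experiments was tested with limma, the experiment being a block, so that the error is the spread of the change among 3 different compounds and not a replicate error of any of them. Of 32 members fitted, 13 fell and 0 rose with a Benjamini-Hochberg adjusted p at or under 0.05 over 11999 genes, where 0.575% of all genes fell and 0.25% rose. At an unadjusted p at or under 0.05, 25 of 32 members were negative and TSC22D3 positive, beside 16.3% of all genes negative and 11.7% positive. SLC45A3 fell by 3.50 (SE 0.24, limma adjusted p = 0.0232), PMEPA1 fell by 2.87 (SE 0.22, adjusted p = 0.0232) and TRPM8 fell by 2.66 (SE 0.23, adjusted p = 0.0255). C1orf116 fell by 3.84 with a larger SE of 0.44, its change with XY011 being the lowest of the 3, and had an adjusted p of 0.0365 in limma. The others that fell were FKBP5, ACSL3, HERC3, ELL2, MAF, GNMT, CAMKK2, SORD and BMPR1B, with mean changes from -2.88 for FKBP5 to -1.17 for SORD. RAB3B (log2 -1.27, limma adjusted p = 0.0528) and INPP4B (-1.92, 0.0549) did not pass, nor did TSC22D3 (1.89, SE 0.46, adjusted p = 0.0777). These calls lie near the threshold: with a pseudocount of 0.1 limma called 0 members and 0 of 11999 genes, with 25 members and 14.6% of genes negative at an unadjusted p at or under 0.05. Without the SR2211 pair 1 member and 0.0167% of genes fell, and without the XY011 pair 2 members and 0.025% of genes did. Without the ENZ pair 22 members fell, but so did 13.7% of all genes.

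**Figure D5:**
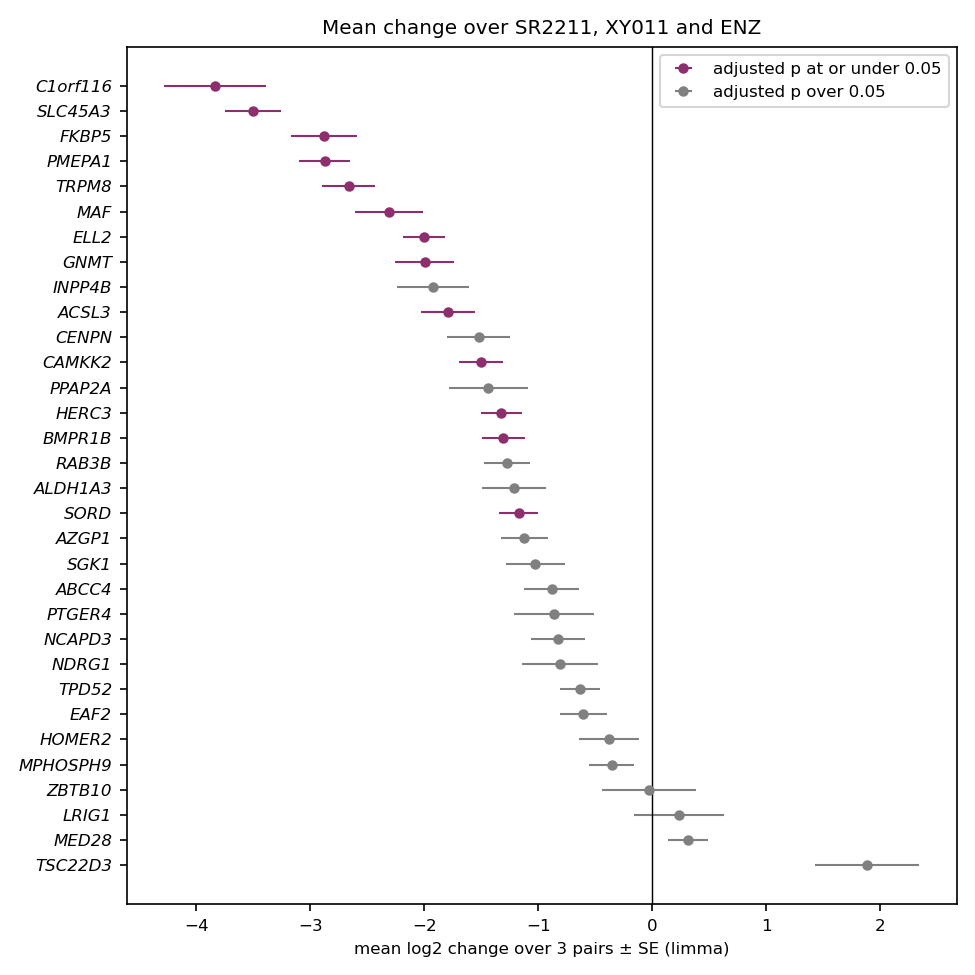
Mean log2 change over the 3 experiments with its SE from limma (horizontal) for 32 members; coloured points have an adjusted p at or under 0.05 and grey points do not. The 13 members that fell lie between -3.84 and -1.17, and TSC22D3 at 1.89 has a wide bar.

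Vehicle levels of the members differed between experiments, which bears on any comparison across them. Over the 32 members listed in all 3, the highest vehicle was a median of 2.28-fold above the lowest, and the ENZ vehicle was the highest for 25. The tables were normalised separately, and over 11205 genes the ENZ vehicle was a median of 1.49-fold above that of SR2211, and over the 31 members 1.80-fold. C1orf116 (1.23-fold), SORD (1.27-fold) and BMPR1B (1.28-fold) had nearly the same level in the vehicles, whereas NDRG1 (5.50-fold), TRPM8 (5.47-fold) and TSC22D3 (5.05-fold) did not. All 3 treated values lay below all 3 vehicle values for 19 of 31 members, 61.3%, a pattern found in 7.92% of the 11205 genes.

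A longer list of other androgen response genes had medians nearer to 0 than the members. The kallikrein and TMPRSS2 list did so with ENZ alone. Members and lists were chosen with earlier results of these data known. The difference in medians thus describes the lists and is not independent evidence of a property of the members. Of 75 further androgen response genes written from general knowledge, 13 of 73 tested were lower and 3 higher with SR2211, 17 of 73 lower and 5 higher with XY011, and 15 of 73 lower and 0 higher with ENZ. Beside these and the other counts here, 5.75%, 13.2% and 4.67% of all genes tested were lower with SR2211, XY011 and ENZ. The shares higher were 5.1%, 7.58% and 3.67%. Medians of the list of 75 were -0.24, -0.32 and -0.38. The lowest of that list included the kinase gene STK39, which went from 124 to 39.4 RPKM, from 150 to 46.7 FPKM and from 93.4 to 18.7 FPKM. They also included SEPP1, which encodes selenoprotein P (changes of -1.38, -2.70 and -2.27). The steroid dehydrogenase gene HSD17B14 had changes of 1.94, 2.10 and 0.45, from low vehicle levels of 0.286 RPKM, 0.54 FPKM and 1.89 FPKM. Of the 5 genes of the kallikrein and TMPRSS2 list, 5 were lower with SR2211, 3 with XY011 and 3 with ENZ, with medians of -1.73, -1.51 and -1.15. Of 14 housekeeping genes, 1 was lower and 0 higher with SR2211, 3 were lower and 2 higher with XY011, and of 13 tested with ENZ 0 were lower and 0 higher.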

How the data were processed

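The labels' protocols describe poly(A)-selected TruSeq libraries, and the ENZ pair is labelled paired-end. The authors deposited RPKM for the SR2211 experiment and FPKM for the XY011 and ENZ experiments, per the file headers. Tools named in the submitters' processing notes are Bowtie, BWA, Cuffdiff and Cufflinks, with hg19 (GRCh37) as the build. The sources used here do not give the tool behind each table, its version, the gene annotation or whether strand was used, and reads of overlapping antisense genes cannot be told apart. Genes without reads stand at 0.01, 0.001 and 0 in the deposited SR2211, XY011 and ENZ tables, and no gene is at 0 in the ENZ vehicle. Groups come from the titles, although the extraction protocols name XY018 in place of XY011 and SR2211 in place of ENZ.

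Members were found by symbol. Members, roles and lists were chosen with earlier results of these data known. Members that passed the size rule in at least 1 experiment are given with values or changes, and of other lists the 3 genes with the largest mean fall or rise could be named. Small RNA genes were left out. Tables were joined by Entrez identifier and then by symbol or RefSeq synonym (13466 genes in all 3), and repeated ENZ symbols were summed. Values were processed with Python 3.11.15, pandas 2.3.3 and SciPy 1.17.1. limma 3.58.1 in R 4.3.3 fitted log2(value + 1) for genes at a mean of 1 or more, with 2 residual degrees of freedom and a prior of 4.25. The procedures were tested on simulated data. Depth of the SR2211 experiment came from microRNA hairpin lengths (17 and 25 genes) and from the depth ratio that 613 of 15664 genes shared, and read numbers are the smallest that give a gene length whole within 0.03 base. In the other experiments the precision of counting is unknown. Alternatives were other pseudocounts, filters, scalings and thresholds, no experiment block, an intensity trend, and leaving out each pair.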

Additional observations from a re-analysis of the deposited data

Results flagged for a closer look

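ZBTB10 passed the size rule in opposite directions in 2 experiments. Its log2 change was 1.12 with XY011, from 9.13 to 21.0 FPKM, and -1.17 with ENZ, from 18.5 to 7.69 FPKM. The difference was not tested, since each experiment held 1 library per group, the doses were 5 and 20 µM, and the tables were normalised separately.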

How the results depend on the processing

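No called direction reversed under any alternative. At an absolute log2 change of 2 or more, the members lower were 5 with SR2211, 9 with XY011 and 8 with ENZ, and those higher 0 with SR2211 and 1 with XY011. Of all genes, 0.329%, 1.54% and 0.7999% were lower at that threshold. At 1.5-fold, 1 member was higher with ENZ, beside 2233 of 19252 genes. The other counts by the size rule stayed within 1.5 times the reported ones under pseudocounts of 0.1 and 5, filters, centring and quantile scaling. Of the 15 members lower in all 3 experiments, 10 were lower in all under a pseudocount of 5, 13 after centring on the median gene and 14 after quantile scaling. Dropping 1 pair, an alternative chosen after seeing the data, gave 16 to 18. The 0.892% of all genes lower in all 3 belongs to the reported setting. For these alternatives such a share is given only without the ENZ pair, at 4.61%. Within single experiments, 2.48%, 5.27% and 1.42% of genes were lower with SR2211, XY011 and ENZ under a pseudocount of 5. After centring these shares were 4.67%, 9.63% and 4.39%, and after quantile scaling 4.95%, 10.0% and 4.23%. The 10 that kept their call in each experiment under every alternative at a threshold of 1 were ACSL3, C1orf116, CAMKK2, ELL2, FKBP5, GNMT, PMEPA1, SLC45A3, SORD and TRPM8. Over all genes, the share of increases among SR2211 calls was 47.0% and 56.1% after centring. Among XY011 calls it was 36.5%, 51.1% after centring and 49.5% after quantile scaling, and the median XY011 gene lay at -0.14.

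In limma, 13 members fell. With a pseudocount of 0.1 and without the experiment block 0 fell (25 and 17 at an unadjusted p at or under 0.05, beside 14.6% and 3.59% of genes). Leaving out 1 pair gave 1 to 22 that fell and 0 to 1 that rose, where 0.0167% to 13.7% of all genes fell and 0% to 9.39% rose, the highest of each without ENZ. The cause was not tested. A fit that leaves out a pair has fewer libraries, and the one without ENZ holds the pairs of SR2211 and XY011, whose changes were the most alike. The adjusted p of SLC45A3 ranged from 0.00363 to 0.452 and that of C1orf116 from 0.00480 to 0.502 over the alternatives. Depth limits ADAM7 (9 and 1 reads in the SR2211 experiment), PTGER4, EAF2, SGK1 and INPP4B. Values of 0.190 FPKM are low, and the number of fragments behind them is unknown.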
